A study of Mus musculus with 24 samples.

Results

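Quiescence was reached along separate routes in these naive mouse embryonic stem cells, and the comparison described here sets the spontaneous route against the induced ones. For each Ensembl gene it takes the log2 fold change of cells with low over high mitochondrial membrane potential and subtracts the mean of the log2 fold changes of etomoxir over water and of the MYC inhibitor over DMSO. A positive difference means that a gene was higher, relative to its reference group, in spontaneous than in induced quiescence. The reference groups were high cells, water and DMSO. The comparison uses 12 of the 24 libraries of the series, in 6 groups of 2.

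All groups were unmodified E14 cells, a male mouse embryonic stem cell line, kept naive in medium with LIF and inhibitors of MEK and GSK3. The low and high groups were sorted from one kind of culture by TMRM, a dye that enters mitochondria according to their membrane potential, and held the dimmest and the brightest cells. No unsorted cells were sequenced beside them. A rise or fall in low cells therefore means relative to high cells, and which of these fractions departed from the whole culture was not measured. ETO cells received 100 µM etomoxir, an inhibitor of the carnitine palmitoyltransferase that brings fatty acids into mitochondria, for 4 days, against water (H2O). MYCi cells received 64 µM of a small molecule that blocks the pairing of MYC with MAX, for 3 days, against DMSO. Low and high cells differed by a sort within a population, whereas the induced groups were whole cultures given an agent, so the difference also contains everything that separates a sorted fraction from a treated culture. The 3 pairs come from separate tables, and each fold change was taken within its own table.

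Quiescence is a reversible exit from the cell cycle. Naive embryonic stem cells hold a small fraction of 2-cell-like cells, which transiently express genes of the 2-cell embryo, among them the Zscan4 cluster and targets of the factor DUX. MYC maintains ribosome production, glycolysis and proliferation in these cells, and loss of MYC activity places them in a dormant state that resembles diapause.

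Each library held an estimated 27.2 to 40.4 M fragments over genes. Replicates correlated at 0.986 to 0.992 with a replicate SD of 0.25 to 0.31 on the log2 scale. Values are FPKM (fragments per kilobase, scaled to library size) scaled so that the median gene is level within each table, and folds are on the log2(FPKM + 0.1) scale, which understates changes of genes near 0. The study reports little total RNA per low cell and normalized low against high to ERCC spike-in RNA, which was not used here. Higher and lower therefore mean relative to the median gene, not per cell. Tests were made with limma over 27113 genes with Benjamini-Hochberg adjustment, and a gene was called at an adjusted p under 0.05. The study describes the duplicates as independent biological replicates, and the labels do not name the cultures. The 8 embryonic stem cell markers each averaged at least 1 FPKM in every group, and the 8 fibroblast markers were under 1 FPKM in every group. The summed stem cell markers were 468 to 496 FPKM in ETO against 879 to 974 FPKM in H2O libraries, 582 to 595 FPKM in MYCi against 832 to 892 FPKM in DMSO libraries, and 1180 to 1200 FPKM in low against 1010 FPKM in both high libraries. In bulk libraries such as these, fewer cells of a type and less RNA per cell cannot be told apart.

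The spontaneous fold exceeded the mean induced fold for 7821 genes, 28.8% of those tested, and was below it for 6143 genes, 22.7%. Compared with each induced effect alone, it was higher for 28.5% and lower for 23.4% of genes against etomoxir, and higher for 24.6% and lower for 15.7% against the MYC inhibitor. Both comparisons called the same direction for 5471 higher genes, 20.2% of all, and for 3261 lower genes, 12%. The 3 effects themselves differed in extent. Low over high called 16.4% of genes higher and 14.1% lower, etomoxir over water 32.3% higher and 32.5% lower, and the MYC inhibitor over DMSO 25.8% higher and 28.6% lower. Across genes, which are not independent replicates, the etomoxir and MYC inhibitor folds had a Pearson correlation of 0.76. The low over high fold correlated with these at 0.16 and 0.15.

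**Figure D1:**
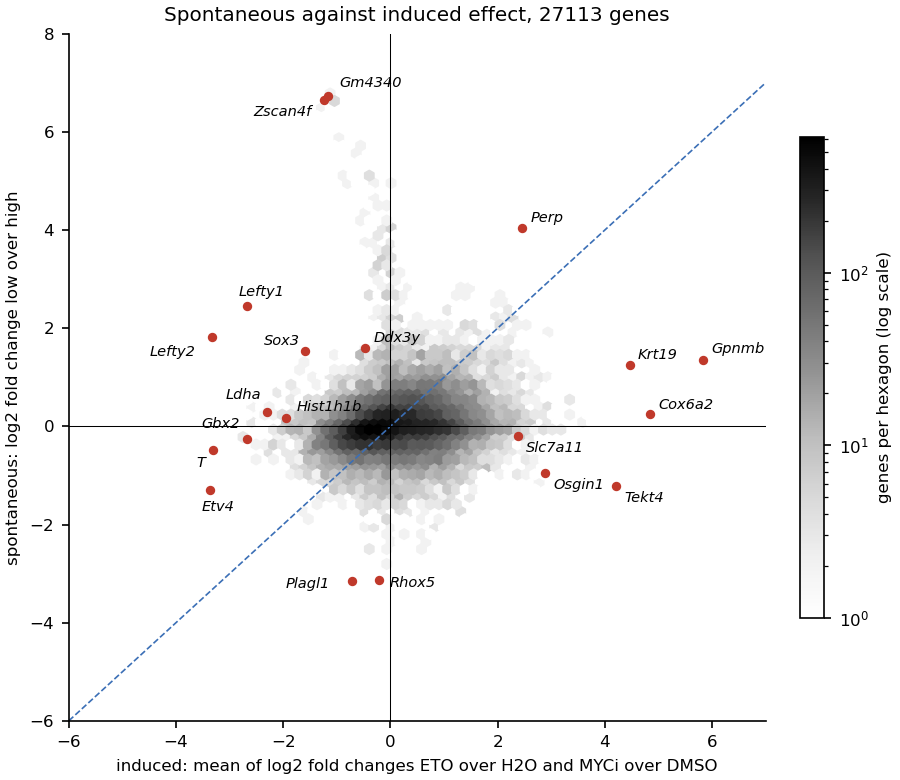
Log2 fold change of low over high cells (vertical) against the mean of the ETO over H2O and MYCi over DMSO log2 fold changes (horizontal) for 27113 genes, as hexagons shaded by the number of genes, with named genes in red and equal effects on the dashed line. Genes spread much farther along the horizontal than the vertical axis, except for a column of 2-cell genes such as Zscan4f at 6.66 and Gm4340 at 6.74.

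The called differences were divided by the single comparisons behind them. Of the 7821 genes that were higher, 3224 (41.2%) were called lower in both induced comparisons while the low over high comparison made no call, and 1329 (17%) were called lower in all 3. In 677 genes (8.66%) only low over high was called, and in 692 (8.85%) low cells were higher while both induced states were lower. Of the 6143 genes that were lower, 3026 (49.3%) were called higher in both induced comparisons with no call for low over high, and 522 (8.5%) were called higher in all 3. Another 361 (5.88%) were called in low over high alone, and 345 (5.62%) were lower in low cells and higher in both induced states. Protein-coding genes made up 55.8% of the tested genes, 78.6% of those higher than both induced effects and 55.2% of those lower than both, while long non-coding and unchecked models made up 17.1%, 6.12% and 26.2% of the same sets.

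The balance of higher and lower calls depended on the scale and on the level of a gene. In the deposited FPKM the median gene had a difference of 0.70, because genes as a whole lay 0.60 lower in ETO and 0.57 lower in MYCi than in their controls on the log2 scale, and this scale called 14130 genes higher and 2012 lower. Scaling on the median of genes with at least 1 FPKM in all 12 libraries called 4866 higher and 9394 lower. On the reported scale the median difference was −0.54 for genes of 0.1 to 0.3 FPKM and 0.51 for genes of 30 FPKM and over, since both induced comparisons lowered abundant genes and raised rare ones relative to the median gene. The low over high medians stayed within 0.08 of 0 at every level. A cyclic loess normalization, which levels each table along abundance, called 6617 genes higher (24.4%) and 5696 lower (21%). It shared 70.3% of the higher and 67.4% of the lower calls, and 215 genes called higher on the reported scale were called lower under it. Counts under loess are therefore given beside each gene group. The background for group counts is the share of all tested genes, 28.8% higher and 22.7% lower, or 24.4% and 21% under loess.

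**Figure D2:**
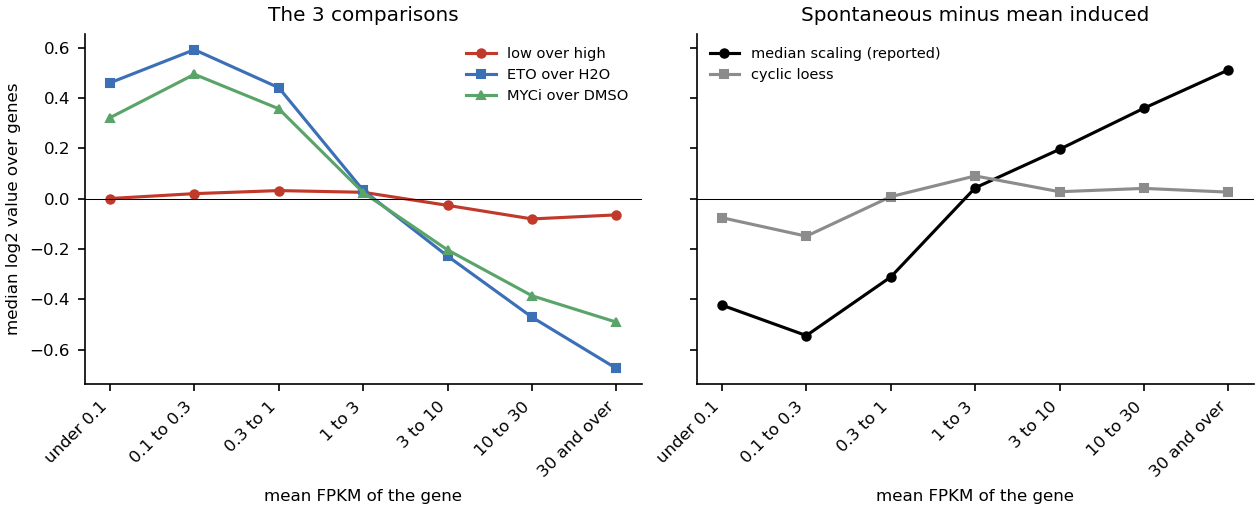
Median log2 fold change of the 3 comparisons (left) and median difference of spontaneous minus mean induced (right) for genes grouped by mean FPKM, under the reported scaling and under cyclic loess. The reported difference runs between −0.54 for genes of 0.1 to 0.3 FPKM and 0.51 for genes of 30 FPKM and over, and the loess medians stay between −0.15 and 0.09.

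The 2-cell embryo genes stood farthest to the spontaneous side. Of 36 tested members, 33 were higher and 1 lower in the difference (loess 33 and 2), with a median of 4.83 against 0 for all tested genes. In the single comparisons 32 rose and 1 fell in low over high cells, whereas 2 rose and 19 fell with etomoxir, and 2 rose and 9 fell with the MYC inhibitor. Of all tested genes, 32.3% rose and 32.5% fell with etomoxir, and 25.8% rose and 28.6% fell with the MYC inhibitor. The share of the group that fell with the MYC inhibitor was thus not above that of all genes. The MYC inhibitor counts depended on the scale, with 3 up and 3 down when scaled on genes of at least 1 FPKM and 0 up and 19 down on the deposited scale. On the deposited scale 13799 of all 27113 tested genes fell with the MYC inhibitor. Zscan4f, a member of the telomere-regulating Zscan4 family (chromosome 7, 11397915 to 11402318, GRCm38), measured 36.6 and 36.9 FPKM in low cells against 0.267 and 0.261 FPKM in high cells. It measured 0.521 and 0.636 FPKM in ETO against 2.52 and 2.68 FPKM in H2O cells, and 1.61 and 1.5 FPKM in MYCi against 2.01 and 2.35 FPKM in DMSO cells. Zscan4f was thus far higher in the sorted low cells and lower in both treated cultures, with no overlap in any pair. Its difference was 7.89 ± 0.12 (SE, limma adjusted p = 1.47e-08).

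Zscan4c followed the same pattern, at 28.3 and 27 FPKM in low against 0.195 and 0.233 FPKM in high cells, with a difference of 7.77. All 12 of the genes with the most positive differences under the naming rule rose in low cells, and 9 of them were Zscan4 genes or pseudogenes. These copies are nearly identical, as are the Usp17 and Tdpoz families, and shared fragments were divided among them, so single members are uncertain. Gm4340, a member of a repeated 2-cell gene family, reached 24.5 and 24.1 FPKM in low against 0.115 and 0.145 FPKM in high cells, and Usp17lb, a deubiquitinase gene, 13.4 and 13 FPKM in low against 0.085 and 0.0777 FPKM in high cells. Duxf3, which encodes the DUX factor that activates 2-cell genes, stood at 0.323 and 0.409 FPKM in low cells against 0 and 0.0075 FPKM in high cells, and its levels in the 8 treated and control libraries were at most 0.0279 FPKM. The exception was Pramel6, with a difference of −1.32, a gene of inner cell mass and naive cells. The 5 markers of 2-cell-like cells summed to 82.9 to 85.4 FPKM in low and 0.685 to 0.787 FPKM in high cells, to 1.07 to 1.36 FPKM in ETO and 4.85 to 5.57 FPKM in H2O cells, and to 3.43 to 3.47 FPKM in MYCi and 4.94 to 5.12 FPKM in DMSO cells. The part of a changed share of 2-cell-like cells in these values was not tested.

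**Figure D3:**
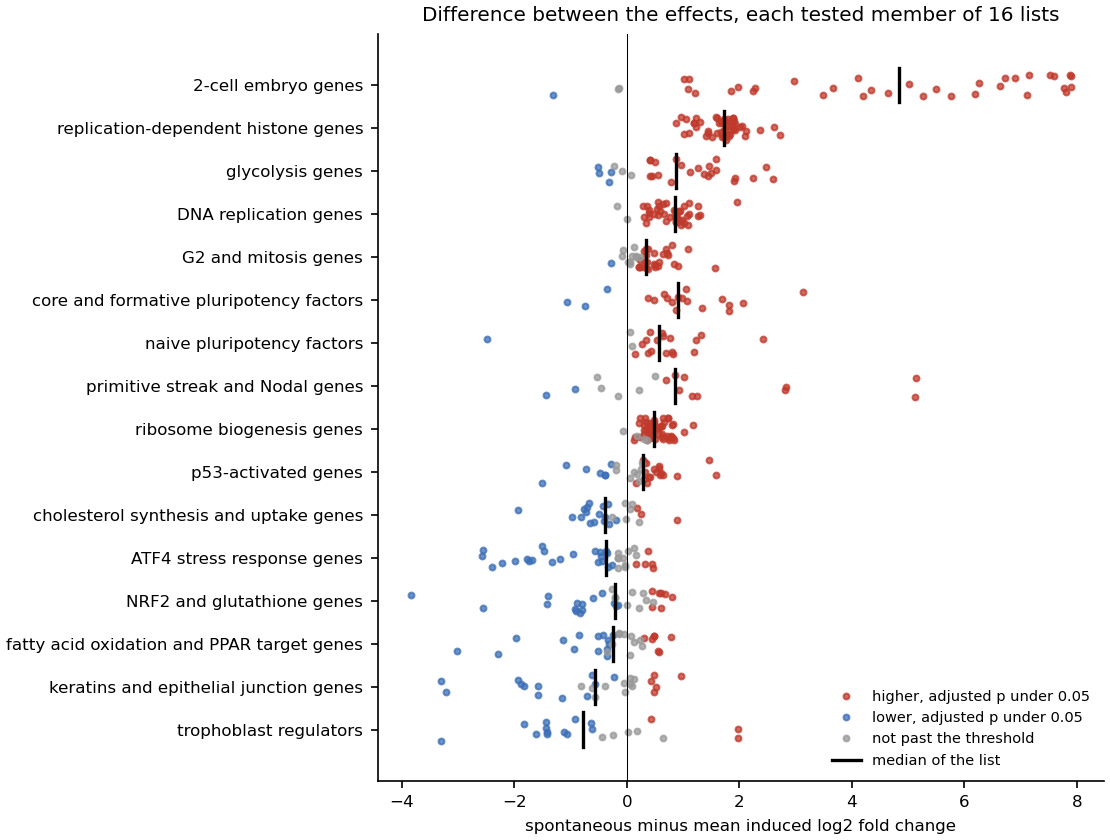
Difference of spontaneous minus mean induced log2 fold change for every tested member of 16 gene groups (points, red for higher and blue for lower at an adjusted p under 0.05, grey for neither), with the group median as a bar. All 50 histone genes lie above 0.87, the 2-cell genes reach 7.89, and the ATF4, cholesterol, NRF2 and trophoblast groups have medians below 0 on this scale, those of the first 3 being above 0 on the deposited scale.

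Cell cycle genes are given by phase. Replication-dependent histone genes, transcribed in S phase to package new DNA, were all on the spontaneous side, with 50 of 50 members higher (loess 50 and 0), a median difference of 1.73 and a range of 0.87 to 2.72. With etomoxir 50 fell, with the MYC inhibitor 49 fell, and in low over high cells 3 rose and none fell, with 0.18 as the median of that comparison. Hist1h1b, which encodes a linker histone (chromosome 13, 21779883 to 21780625), measured 255 and 234 FPKM in low against 199 and 233 FPKM in high cells, 47.3 and 45.5 FPKM in ETO against 252 and 273 FPKM in H2O cells, and 109 and 103 FPKM in MYCi against 292 and 261 FPKM in DMSO cells. Its level thus separated both treated cultures from their controls, and in low cells it lay at or above high cells (adjusted p = 0.188 for low over high). Hist1h2bm, which encodes an H2B, had the largest difference of the group, 2.72 ± 0.46 (SE), but its H2O libraries stood apart from each other at 56.9 and 161 FPKM. Histone genes are near-identical copies within clusters, and their fragments were divided among copies.

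DNA replication genes behaved alike, with 41 of 43 higher and none lower (loess 33 and 2) and a median of 0.86. Etomoxir lowered 41 of them and the MYC inhibitor 42, while in low cells 2 rose and 15 fell, none of which was called on the deposited scale. Ccne1, the cyclin E that starts S phase, stood at 27.9 and 27.3 FPKM in low against 29.1 and 30.2 FPKM in high cells, 7.87 and 8 FPKM in ETO against 37.3 and 40.5 FPKM in H2O cells, and 12.3 and 13.6 FPKM in MYCi against 46.9 and 46.7 FPKM in DMSO cells. The treated cultures held well under the level of their controls, while the sorted pair was close, and the difference was 1.96 ± 0.07 (SE, limma adjusted p = 6.68e-07). Cdc6, a loader of the replicative helicase, had a difference of 1.31, and Rrm2, a subunit of ribonucleotide reductase, one of 1.26.

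The genes of G2 and mitosis fell in each of the 3 comparisons. Among 38 members, 35 fell in low over high cells, 37 with etomoxir and all 38 with the MYC inhibitor, and none rose in low cells. On the deposited scale 17 fell in low cells. The medians were −0.62 for low over high, −1.22 for etomoxir and −0.73 for the MYC inhibitor. The difference called 27 higher and 1, Cenpf, lower, with a median of 0.35, but loess called 15 higher and 7 lower. Cenpf was lower against the MYC inhibitor (−0.71) but higher against etomoxir (0.15). Cdk1, the kinase that drives entry into mitosis, measured 14 and 13 FPKM in low against 24 and 23.9 FPKM in high cells, 8.15 and 7.52 FPKM in ETO against 23.8 and 24.6 FPKM in H2O cells, and 12.8 and 12.3 FPKM in MYCi against 24.7 and 25.2 FPKM in DMSO cells. It fell in all 3 pairs without overlap, and its difference was 0.48, at 0.79 against etomoxir and 0.16, not called, against the MYC inhibitor. Ccnb1, its cyclin partner, had a difference of 0.22 (adjusted p = 0.0421), which was −0.15 under loess and −0.04 when scaled on genes of at least 1 FPKM. Another B-type cyclin, Ccnb2, did separate the routes, at 33.5 and 33.4 FPKM in low against 35 and 37.6 FPKM in high cells but 13.3 FPKM in both ETO against 54.3 and 62.4 FPKM in H2O libraries, with a difference of 1.57. Of 18 G1 regulators 11 were higher and 1 lower, with a median of 0.47 (loess 9 and 3). Ccnd1 differed by 1.29 and Ccnd3 by 0.72, and the inhibitor Cdkn1a, a p53 target, by 0.59. Cdkn1a stood at 37.5 and 36.9 FPKM in low against 22.8 and 22.9 FPKM in high cells, at 39.7 and 35.9 FPKM in ETO against 32.7 and 34.2 FPKM in H2O cells, and at 28.3 and 29.7 FPKM in MYCi against 28.6 and 27.9 FPKM in DMSO cells.

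Genes activated by p53, a stress-responsive brake on the cell cycle, moved with all 3 routes. Of 34 members, 30 rose in low over high cells, 29 with etomoxir and 27 with the MYC inhibitor, with medians of 1.02, 1.0 and 0.57, although on the deposited scale 15 rose and 8 fell with etomoxir and 7 rose and 10 fell with the MYC inhibitor. Of all 27113 tested genes on that scale, 3549 rose and 14160 fell with etomoxir, and 1954 rose and 13799 fell with the MYC inhibitor. Relative to all genes, the p53 group thus still leaned upward there. The difference called 19 higher and 7 lower with a median of 0.29, and loess called 11 and 10. Perp, a p53 target of cell death and adhesion, measured 8.9 and 9.92 FPKM in low against 0.374 and 0.601 FPKM in high cells, 17.2 and 16.4 FPKM in ETO against 1.42 and 1.49 FPKM in H2O cells, and 4.4 and 5.02 FPKM in MYCi against 1.77 and 1.53 FPKM in DMSO cells. It rose along every route, and its spontaneous fold exceeded that of the MYC inhibitor by 2.58 but was not called against etomoxir (0.60, adjusted p = 0.0592). Ptp4a3, a phosphatase gene, differed by 1.46, and Gdf15, a secreted stress factor, by −1.51. Mdm2, the negative regulator of p53, had a difference of −0.28, at −0.65 against etomoxir and 0.09, not called, against the MYC inhibitor.

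**Figure D4:**
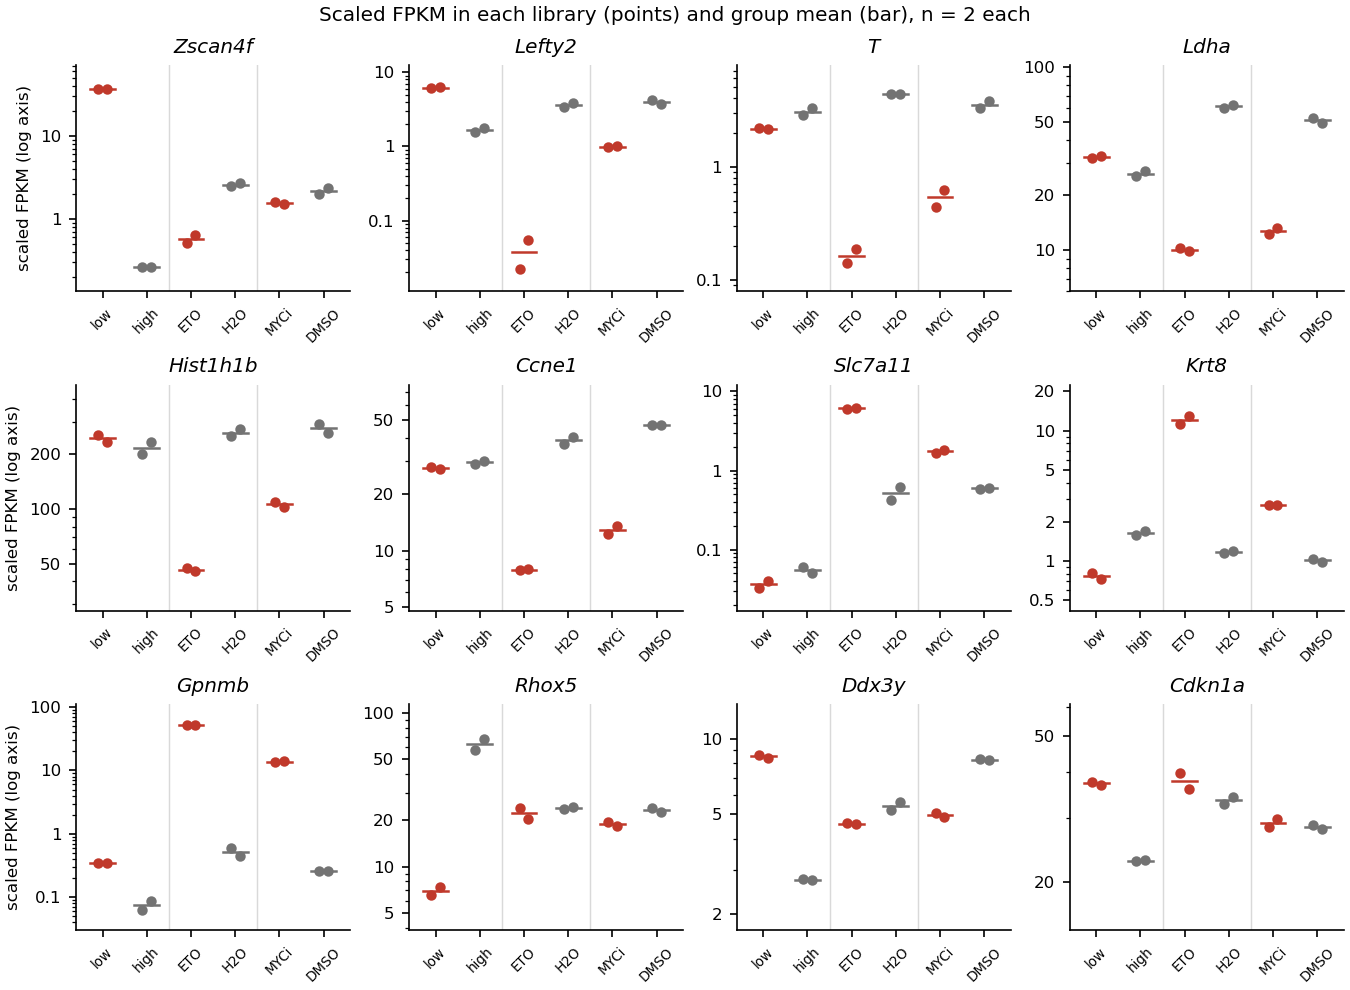
Scaled FPKM on log axes for 12 genes in each of the 12 libraries (points) with group means (bars), low beside high, ETO beside H2O and MYCi beside DMSO. Cdkn1a is higher in low than in high cells, Zscan4f and Rhox5 move mainly in the sorted pair, and Ldha, Hist1h1b, Ccne1, Slc7a11, Krt8 and Gpnmb separate the treated cultures from their controls.

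Pluripotency genes mostly fell in the induced states on the reported scale and had no common direction in the spontaneous one. Among naive factors, 17 of 20 were higher in the difference and 1 lower, with a median of 0.58 (loess 12 and 6). Of the core and formative factors, 16 of 19 were higher and 3 lower, with a median of 0.91 (loess 16 and 3). In low over high cells 5 naive factors rose and 4 fell, whereas etomoxir lowered 18 and the MYC inhibitor 14, but under loess the MYC inhibitor raised 10 and lowered 6. Nanog, a central naive factor, measured 144 and 142 FPKM in low against 119 and 125 FPKM in high cells, 80 and 76.5 FPKM in ETO against 170 and 188 FPKM in H2O cells, and 95.5 and 98.4 FPKM in MYCi against 174 and 164 FPKM in DMSO cells. Nanog was thus slightly higher in low cells and lower in both treated cultures, with a difference of 1.23. Prdm14, a repressor of differentiation, was opposed in the same way with a difference of 1.32. Klf4 differed by 1.2 and Sox2 by 0.88, and their MYC inhibitor fold of −0.25 each was 0.21 and 0.25 under loess. Pou5f1, which encodes OCT4, differed by 0.67 and was not called for low over high (log2 fold change −0.06, adjusted p = 0.568). For these factors the difference was 0.69 in Nanog and 0.15 in Pou5f1 under loess.

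Some members of both pluripotency groups had larger differences. Gbx2, a naive factor downstream of LIF and WNT signalling, measured 14.7 and 14.2 FPKM in low against 16.6 and 17.9 FPKM in high cells, 1.19 and 0.952 FPKM in ETO against 13.7 and 15.3 FPKM in H2O cells, and 4.6 and 4.9 FPKM in MYCi against 16.1 and 15.1 FPKM in DMSO cells. Gbx2 fell with both agents and low over high made no call (adjusted p = 0.0809), for a difference of 2.42 ± 0.12 (SE, limma adjusted p = 2.45e-06). Lin28a, an RNA-binding regulator of let-7, and Lef1, a transcription factor of the WNT pathway, each differed by 1.82. Etv4, an ETS factor induced by ERK, fell along all 3 routes, with log2 fold changes of −1.30 in low over high, −3.50 with etomoxir and −3.24 with the MYC inhibitor. Sox3, a factor of early neural and formative cells, was at 1.19 and 1.14 FPKM in low against 0.349 and 0.318 FPKM in high cells, and in the treated cultures it stood under 0.1 FPKM, with a difference of 3.14. The lower members were Otx2 at −1.06, Dnmt3l at −0.74 and Foxd3 at −0.36. Dnmt3l and Foxd3 were lower against etomoxir alone (−1.60 and −0.73) and not called against the MYC inhibitor (0.12 and 0.02). Dppa3, a maternal factor also marking naive cells, went against the other naive factors, at 2.21 and 1.74 FPKM in low against 4.29 and 5.84 FPKM in high cells and 8.3 and 9.18 FPKM in MYCi against 2.61 and 2.3 FPKM in DMSO cells, with a difference of −2.48.

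In the primitive streak and Nodal group, 10 of 17 members were higher and 2 lower, with a median of 0.86 (loess 10 and 2). Lefty1 and Lefty2, neighbouring genes on chromosome 1 that encode secreted inhibitors of Nodal, had the largest differences, 5.13 and 5.14. Lefty2 measured 6.08 and 6.26 FPKM in low against 1.57 and 1.78 FPKM in high cells, 0.0223 and 0.0541 FPKM in ETO against 3.37 and 3.83 FPKM in H2O cells, and 0.994 and 1 FPKM in MYCi against 4.22 and 3.73 FPKM in DMSO cells. Lefty1 was at 9.06 and 9.9 FPKM in low against 1.56 and 1.75 FPKM in high cells, and at 0 and 0.01 FPKM in ETO against 1.23 and 1.36 FPKM in H2O cells. Both inhibitors were therefore higher in low cells and close to undetected after etomoxir. T, which encodes the streak factor Brachyury, fell to 0.143 and 0.187 FPKM in ETO against 4.37 and 4.4 FPKM in H2O cells, and to 0.444 and 0.627 FPKM in MYCi against 3.27 and 3.77 FPKM in DMSO cells, while low cells had 2.18 and 2.16 FPKM against 2.85 and 3.28 FPKM in high cells. Tbx6, at −1.43, and Eomes, at −0.92, were the 2 lower members.

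Glycolysis genes fell in the induced states and moved in both directions in the spontaneous one. Of 29 members, 22 were higher in the difference and 4 lower (loess 18 and 3), with a median of 0.88. Etomoxir lowered 23 and the MYC inhibitor 23, and in low over high cells 9 rose and 9 fell. Ldha, the lactate dehydrogenase subunit that turns pyruvate into lactate (chromosome 7, 46841475 to 46855627), measured 32.1 and 32.7 FPKM in low against 25.4 and 27 FPKM in high cells, 10.3 and 9.84 FPKM in ETO against 60.2 and 62.5 FPKM in H2O cells, and 12.3 and 13.3 FPKM in MYCi against 53.1 and 49.9 FPKM in DMSO cells. Low cells held slightly more Ldha than high cells, and both treatments reduced it, for a difference of 2.60 ± 0.07 (SE, limma adjusted p = 2.29e-07). Pfkl, a phosphofructokinase at the committed step, differed by 2.47, Pdk1, a kinase that inhibits pyruvate dehydrogenase, by 2.24, and Tpi1, triose phosphate isomerase, by 1.92. The 4 lower members included Pdk4 at −0.52, a kinase of the same family as Pdk1 but induced by fasting. Pdk4 was lower against etomoxir (−0.90) and not called against the MYC inhibitor (−0.14). Slc16a3, an exporter of lactate, differed by 1.9, although the sorted libraries stood near 0.6 to 0.7 FPKM. Bnip3, a hypoxia-induced mitophagy receptor, was at 0.643 and 0.661 FPKM in low against 0.291 and 0.277 FPKM in high cells but at 2.64 and 2.61 FPKM in ETO against 8.3 and 9.19 FPKM in H2O cells. Of the 20 hypoxia-inducible genes, 11 were higher and 5 lower (loess 9 and 5), with a median of 0.32. The lower share of 25% was near the 22.7% of all tested genes. Among the lower members, Vegfa, the vascular growth factor, differed by −1.84, and Ndrg1, at 19.5 and 19.6 FPKM in ETO against 2.68 and 2.6 FPKM in H2O cells, by −2.21.

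Nuclear-encoded respiratory chain genes, whose products carry out oxidative phosphorylation, were higher for 52 of 74 members and lower for 2 (median 0.50, loess 34 and 3). Ribosome biogenesis genes, which MYC is known to activate, were higher for 51 of 55 and lower for none, with a median of 0.48 (loess 29 and 3). Etomoxir lowered 53 of the ribosome biogenesis genes and the MYC inhibitor all 55, while 27 fell and 3 rose in low cells. On the deposited scale low over high called 1 higher and none lower, and under loess the MYC inhibitor lowered 35 and raised 4. Pa2g4, a growth-linked nucleolar protein, differed by 0.83, and Nolc1, a nucleolar chaperone, by 0.84. Odc1, the MYC-activated enzyme that starts polyamine synthesis, stood at 12.8 and 10.8 FPKM in low against 12.3 and 12.7 FPKM in high cells, and at 23.8 and 23.7 FPKM in MYCi against 47.1 and 43.9 FPKM in DMSO cells. Myc itself differed by 0.31, at 1.6 and 1.67 FPKM in MYCi against 4.82 and 4.26 FPKM in DMSO cells, and Mycn by 0.17 (adjusted p = 0.0759). Cytosolic ribosomal protein genes were higher for 28 of 78 (35.9%, against 28.8% of all tested genes) and lower for 3 (3.85%, against 22.7%). Under loess 10 were higher and 26 lower, so the balance of their calls turned with the normalization.

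**Figure D5:**
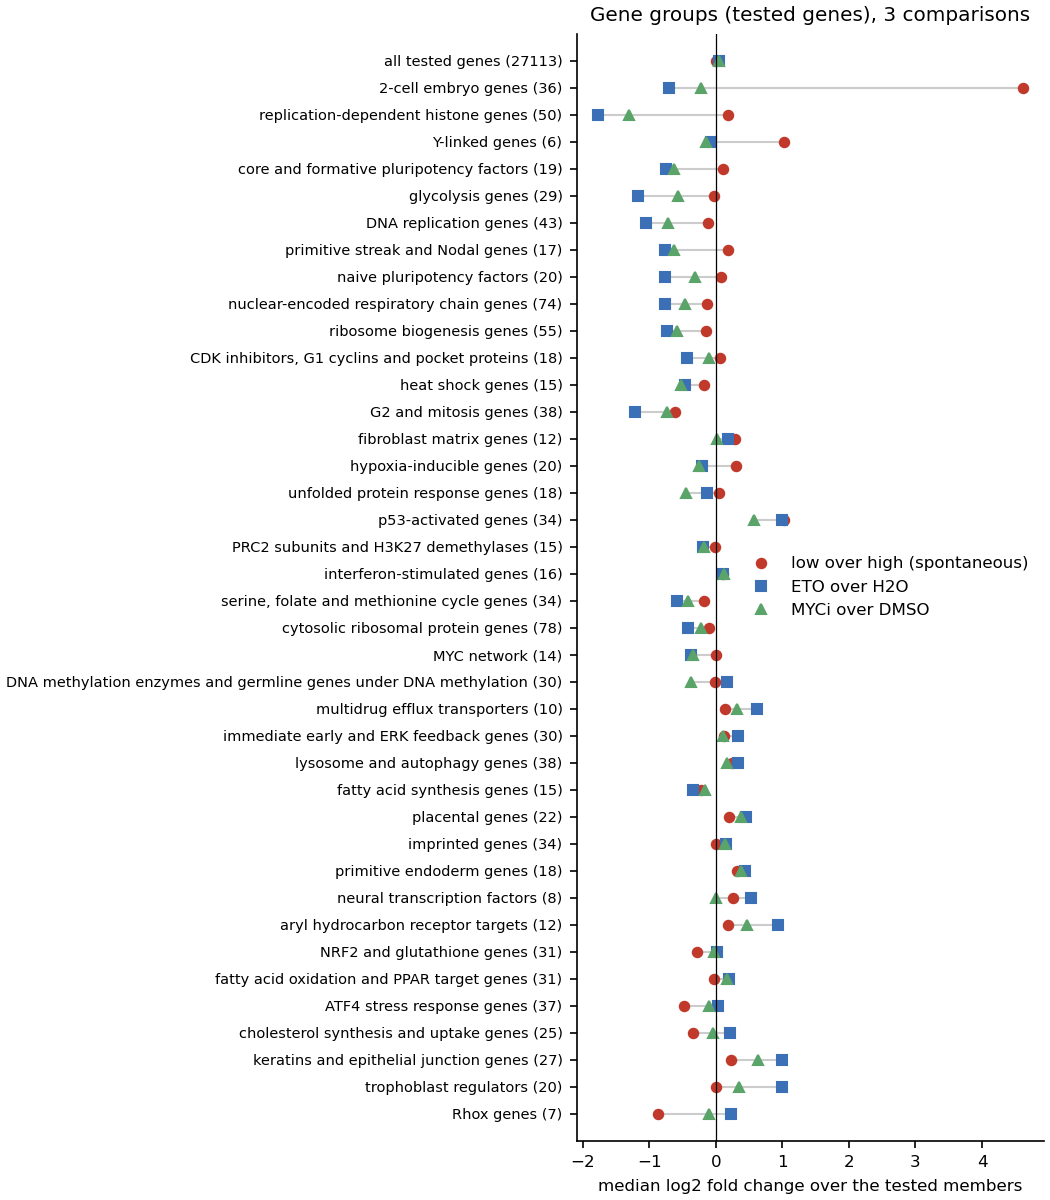
Median log2 fold change over the tested members of 39 gene groups and over all tested genes, for low over high, ETO over H2O and MYCi over DMSO, ordered by the median difference of spontaneous minus mean induced below the row of all genes. The 2-cell group lies at 4.61 in low over high and below 0 in both induced comparisons, and the p53 group lies above 0.5 in all 3 on this scale. On the deposited scale the MYC inhibitor median of the p53 group is −0.17, against −0.57 for all tested genes.

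Stress-response groups had no common direction. Unfolded protein response genes were higher for 11 of 18 and lower for 3, with a median of 0.31 (loess 4 and 6), and heat shock genes were higher for 9 of 15 and lower for 2, with a median of 0.40 (loess 4 and 5), so neither kept its balance under loess. Of 37 genes of the ATF4 stress response, the program that cells switch on when amino acids or protein folding fail, 22 were lower in the difference and 5 higher, with a median of −0.37 (loess 33 lower and 1 higher). On the deposited scale the median was 0.44, still under the 0.70 of the median gene there. In low over high cells 26 fell and 7 rose, whereas etomoxir raised 17 and lowered 15, and the MYC inhibitor raised 14 and lowered 16. The induced counts turned with the scale. Under loess etomoxir raised 26 and lowered 7 and the MYC inhibitor raised 21 and lowered 9, whereas on the deposited scale etomoxir raised 12 and lowered 20 and the MYC inhibitor raised 3 and lowered 25. Of all 27113 tested genes on the deposited scale, 14160 fell with etomoxir and 13799 with the MYC inhibitor. Slc1a4, a neutral amino acid transporter, measured 3.25 and 3.53 FPKM in low against 8.42 and 8.45 FPKM in high cells, 47 and 48.2 FPKM in ETO against 22.3 and 25.1 FPKM in H2O cells, and 19.8 and 20.7 FPKM in MYCi against 15.7 and 15.4 FPKM in DMSO cells. It fell in low cells and rose in both treated cultures, the MYC inhibitor fold of 0.38 being −0.36 on the deposited scale, with a difference of −1.98 ± 0.07 (SE, limma adjusted p = 8.4e-07). Atf3, a stress-induced transcription factor, rose in all 3 comparisons, to 24.4 and 26.4 FPKM in ETO against 1.15 and 1.71 FPKM in H2O cells and to 1.3 and 1.14 FPKM in low against 0.493 and 0.629 FPKM in high cells, with a difference of −2.40. Slc7a11, the cystine importer, differed by −2.56, at 6.02 and 6.23 FPKM in ETO against 0.419 and 0.625 FPKM in H2O cells, but it stood under 0.06 FPKM in all 4 sorted libraries, where a fold is hardly measurable. Cebpb, a stress-responsive transcription factor, differed by −2.58 and Aldh1l2, a mitochondrial folate enzyme, by −2.21.

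The promoters of these groups are shown for a few members, because their short sequences are the known binding letters of stress, hypoxia and histone gene factors. Sequences are RefSeq promoters on GRCm38.p6, printed 5′ to 3′ on the gene's strand, with every match of the named motif on either strand in capitals. The C/EBP-ATF composite site TTGCATCA was found in 9 of the 30 ATF4 group genes that had a promoter in the table (30%), and in 1.0% of 27025 genes. The hypoxia response core ACGTG, which also lies within the E-box CACGTG, was present in 16 of 28 glycolysis genes (57.1%) and 21.8% of all. CACGTG reads the same on both strands, so each CACGTG counts as 2 matches of ACGTG, as in the Ldha promoter below. CCAAT was present in 39 of 46 histone genes (84.8%) and 41.1% of all. The E-box CACGTG itself occurred in 13 of 49 ribosome biogenesis genes (26.5%) and 8.1% of all. The antioxidant response core TGACNNNGC occurred in 9 of 26 NRF2 group genes (34.6%) and 14.0% of all. Few matches were found for the sterol regulatory element TCACNCCAC, in 1 of 17 cholesterol genes (5.9%) and 1.4% of all. The TCF/LEF site ATCAAAG was in 1 of 11 streak and Nodal genes (9.1%) and 4.3% of all. Windows ran over 300 bases around each start, and these shares are descriptions of letters, not of binding.
Slc7a11 (chr3:50443638-50443694, minus strand, 2 matches of TTGCATCA): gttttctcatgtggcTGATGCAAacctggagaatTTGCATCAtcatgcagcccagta
Atf3 (chr1:191183421-191183458, minus strand, 1 match of TTGCATCA): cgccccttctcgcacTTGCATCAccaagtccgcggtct
Ldha (chr7:46845647-46845786, plus strand, 5 matches of ACGTG): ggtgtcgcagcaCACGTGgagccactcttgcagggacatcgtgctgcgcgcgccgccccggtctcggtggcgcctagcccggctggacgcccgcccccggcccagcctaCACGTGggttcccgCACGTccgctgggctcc
Slc16a3 (chr11:120949028-120949066, plus strand, 2 matches of ACGTG): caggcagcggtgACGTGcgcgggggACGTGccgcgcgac
Hist1h1b (chr13:21780662-21780805, minus strand, 3 matches of CCAAT): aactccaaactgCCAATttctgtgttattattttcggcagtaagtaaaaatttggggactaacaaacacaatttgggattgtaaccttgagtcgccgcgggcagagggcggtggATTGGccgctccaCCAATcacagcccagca

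NRF2 and glutathione genes, which handle oxidative stress, were lower for 15 of 31 and higher for 7, with a median of −0.21 that was 0.61 on the deposited scale (loess 18 lower and 5 higher). Osgin1, an oxidative stress-induced growth inhibitor, was at 0.116 and 0.127 FPKM in low against 0.31 and 0.344 FPKM in high cells, 1.92 and 1.93 FPKM in ETO against 0.0718 and 0.0991 FPKM in H2O cells, and 0.696 and 0.622 FPKM in MYCi against 0.0226 and 0.0844 FPKM in DMSO cells. Its difference of −3.84 joined a fall in low cells to a rise with either agent. Srxn1, sulfiredoxin, differed by −1.40, Gpx2, a glutathione peroxidase, by −1.41, and Nqo1, a quinone reductase, by −0.90, each higher in both treated cultures. Cyp1a1, the leading target of the aryl hydrocarbon receptor, rose along every route, with log2 fold changes of 1.94 in low over high, 5.46 with etomoxir and 0.49 with the MYC inhibitor, the last of which was −0.19 on the deposited scale.

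Cholesterol and fatty acid oxidation genes were more often lower than higher in the difference, and fatty acid synthesis genes lay near the shares of all tested genes. Of 15 fatty acid synthesis genes, 5 were higher (33.3%) and 3 lower (20%), with 4 higher and 9 lower under loess. Cholesterol synthesis and uptake genes were lower for 16 of 25 and higher for 3, Ebp and Acat2 among them, with a median of −0.38 that was 0.43 on the deposited scale (loess 21 lower and 1 higher), and 18 of them fell in low over high cells, against 3 on the deposited scale. Msmo1, a sterol demethylase, stood at 7.97 and 7.64 FPKM in low against 10.9 and 12 FPKM in high cells and at 28 and 26.8 FPKM in ETO against 19.2 and 22.2 FPKM in H2O cells, with a difference of −0.81 that was 0.01 on the deposited scale. Ebp, a sterol isomerase, differed by 0.90. Fatty acid oxidation and PPAR target genes were lower for 14 of 31 and higher for 7, with a median of −0.24 that was 0.58 on the deposited scale (loess 16 lower and 6 higher). These shares were 45.2% lower and 22.6% higher, against 22.7% and 28.8% of all tested genes. Acot2, a mitochondrial acyl-CoA thioesterase, measured 14.5 and 16.4 FPKM in ETO against 0.784 and 1.01 FPKM in H2O cells, 3.2 and 3.56 FPKM in MYCi against 0.707 and 0.686 FPKM in DMSO cells, and 0.548 and 0.738 FPKM in low against 0.586 and 0.648 FPKM in high cells. Acot2 thus rose with either agent and overlapped between the sorted groups. Cpt1b, a carnitine palmitoyltransferase of muscle, differed by −2.28, and Plin2, a lipid droplet coat protein, by −1.96. Cpt1a, the etomoxir-sensitive carnitine palmitoyltransferase of liver and most cells, differed by −0.52, which was 0.30 on the deposited scale.

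Trophoblast regulators were lower for 12 of 20 and higher for 3, with a median of −0.78 (loess 13 lower and 3 higher), and keratins and epithelial junction genes were lower for 12 of 27 and higher for 5, with a median of −0.56 that was 0.22 on the deposited scale (loess 13 lower and 4 higher). Krt8, a keratin of simple epithelia, fell to 0.806 and 0.721 FPKM in low against 1.59 and 1.69 FPKM in high cells, and rose to 11.3 and 13 FPKM in ETO against 1.14 and 1.2 FPKM in H2O cells and to 2.7 and 2.69 FPKM in MYCi against 1.04 and 0.987 FPKM in DMSO cells. Krt19 and Krt18, other simple-epithelial keratins, rose along all 3 routes, with differences of −3.22 and −1.82. The 3 higher trophoblast regulators included Cdx2 and Bmp4, each at 1.97, and Ets2. Cdx2, the trophectoderm factor, measured 0.938 and 0.976 FPKM in low against 1.17 and 1.4 FPKM in high cells but 0.218 and 0.169 FPKM in ETO against 3.01 and 2.56 FPKM in H2O cells. The 4 trophoblast markers summed to 8.01 to 8.08 FPKM in ETO against 4.51 to 4.99 FPKM in H2O cells, 2.8 to 3.29 FPKM in MYCi against 4.28 to 5.05 FPKM in DMSO cells, and 2.15 FPKM in both low against 2.28 to 2.6 FPKM in high libraries. The part of differentiated cells in these values was not tested.

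Single genes with the most negative differences belonged mainly to the treated cultures. Gpnmb, a glycoprotein of lysosomes and melanosomes, measured 52.8 and 51.5 FPKM in ETO against 0.594 and 0.44 FPKM in H2O cells and 13.7 and 13.9 FPKM in MYCi against 0.261 and 0.26 FPKM in DMSO cells. In the sorted pair it stood at 0.347 and 0.349 FPKM in low against 0.0636 and 0.0869 FPKM in high cells. It therefore rose along every route but far more with the agents, and the difference was −4.48 ± 0.14 (SE, limma adjusted p = 4.78e-07). Tekt4, a tektin of cilia and flagella, had the most negative difference of all named genes at −5.42, falling in low cells and rising with both agents. Cox6a2, a heart and muscle subunit of cytochrome oxidase, differed by −4.59, Gsn, the actin-severing gelsolin, by −3.85, Tat, tyrosine aminotransferase, by −4.02, and Sstr5, a somatostatin receptor, by −3.83.

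A smaller set was negative through the sorted pair. Rhox5, a homeobox gene of the X-linked reproductive cluster, measured 6.52 and 7.38 FPKM in low against 57.2 and 67.4 FPKM in high cells, 23.9 and 20.5 FPKM in ETO against 23.6 and 24.4 FPKM in H2O cells, and 19.6 and 18.4 FPKM in MYCi against 24.2 and 22.6 FPKM in DMSO cells. Rhox5 was clearly lower in low than in high cells and fell little or not measurably with the agents, with a difference of −2.94 ± 0.12 (SE, limma adjusted p = 1.33e-06). Its neighbour Rhox2a differed by −2.09, and 4 of 7 tested Rhox genes were lower and none higher (loess 4 lower and 0 higher). Plagl1, an imprinted zinc finger gene on chromosome 10, stood at 0.828 and 0.733 FPKM in low against 7.47 and 8.02 FPKM in high cells, at 7.86 and 7.32 FPKM in ETO against 13.9 and 14.6 FPKM in H2O cells, and at 6.67 and 7.2 FPKM in MYCi against 9.94 and 10.3 FPKM in DMSO cells. Magea4, an X-linked germline gene, differed by −1.9. Both fell along all 3 routes, most in low cells.

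The sorted pair also differed in Y-linked genes. Of 6 tested, 3 were higher in the difference and none lower (loess 4 and 0), namely Ddx3y at 2.08, Eif2s3y at 1.96 and Uty at 1.57. Ddx3y, an RNA helicase, measured 8.67 and 8.38 FPKM in low against 2.75 and 2.74 FPKM in high cells, 4.62 and 4.56 FPKM in ETO against 5.21 and 5.61 FPKM in H2O cells, and 5.06 and 4.88 FPKM in MYCi against 8.29 and 8.22 FPKM in DMSO cells. Ddx3y was thus lower in high than in low cells and, on the reported scale, lower in both treated cultures than in their controls. The 4 Y-linked markers summed to 15.7 to 16.4 FPKM in low against 5.43 to 5.6 FPKM in high cells. Their sums were 9.38 to 9.58 FPKM in ETO against 11.7 to 11.8 FPKM in H2O libraries. In MYCi they were 11.1 to 11.9 FPKM against 17.4 to 18 FPKM in DMSO libraries. Whether a share of high cells, or of cells in any other group, lacked the chromosome was not tested. Lamb1, a basement membrane laminin, rose to 2.93 and 2.82 FPKM in low against 0.811 and 0.822 FPKM in high cells with a difference of 1.88.

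Mat2a and Eed, which the series targets elsewhere, differed little, but some other genes of the same processes differed more. Of 34 serine, folate and methionine cycle genes, 18 were higher and 9 lower, with a median of 0.22 (loess 13 and 14). The lower share of 26.5% was near the 22.7% of all tested genes, and the higher share was 52.9% against 28.8%. In that group Ahcy differed by 1.09, or 0.81 under loess, and Aldh1l2 by −2.21. Mat2a, which makes S-adenosylmethionine, measured 29.2 and 28 FPKM in low against 36.7 and 36.6 FPKM in high cells, 24.5 and 24.2 FPKM in ETO against 32.6 and 33.7 FPKM in H2O cells, and 30.2 and 29.1 FPKM in MYCi against 43.6 and 42.7 FPKM in DMSO cells. It fell along every route, except that its etomoxir fold was 0.07 under loess, and its difference of 0.13 (adjusted p = 0.0361) was −0.26 under loess. The PRC2 subunits Eed, Ezh2 and Suz12, which place H3K27 methylation, differed by 0.30, 0.33 and 0.40, but under loess by 0, 0.05 and −0.07, where none of the 3 was called (adjusted p = 0.964, 0.257 and 0.195). Epop, a PRC2-associated protein of stem cells, differed by 1.28, and of 15 genes of that group 9 were higher and 4 lower (loess 3 and 5). The lower share of 26.7% was near the 22.7% of all tested genes. The higher share was 60% against 28.8%, but under loess it was not above the 24.4% of all genes. Fbn1, a fibroblast matrix gene used to check for feeder cells, stayed at or under 0.457 FPKM in every library, with a difference of 0.59.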

How the data were processed

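RNA was sequenced from ribosomal RNA-depleted total RNA. The deposited values are FPKM computed by the authors with edgeR from featureCounts counts made without regard to strand, with shared fragments divided among features, over Ensembl genes, NONCODE transcripts and HOMER 4.10 repeats of GRCm38, after trimming, TopHat2 2.1.1 alignment and removal of duplicates with SAMtools 1.9. Their scaling covers all features, so genes as a whole can shift between groups.

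Ensembl rows (55385) of 12 libraries in 3 tables were used, and libraries of the other comparisons were not used here. Each library was divided by the median of its ratios to the geometric mean of its table. Genes of at least 0.1 FPKM in 2 libraries were fitted with limma 3.58.1 (R 4.3.3, trend) on log2(FPKM + 0.1) with 6 group means. The script was tested on simulated data. Depth is an estimate of the fragments over genes, 27.2 to 40.4 M. It takes the most frequent product of FPKM and gene length as 1 fragment, which the division of shared fragments can make inexact. Standard errors come from 2 libraries a group. Alternatives were other scalings, pseudocounts and filters, no trend, array weights, a replicate block and leaving out each library. Cyclic loess and scaling on genes of at least 1 FPKM were added after seeing the data.

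Named genes were the 12 most positive and 12 most negative differences called against both induced effects (group mean of at least 1 FPKM, no Gm or Rik models), up to 4 called members of each list, and a fixed set. Some genes under this rule are not reported here. The members and lists were chosen with earlier results of these data known. Pramel6, Otx2, Dnmt3l, Foxd3, Tbx6, Eomes, Pdk4, Mdm2, Cenpf, Ets2 and Acat2 were named after their values were seen. Promoters are from RefSeq.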

Additional observations from a re-analysis of the deposited data

Results flagged for a closer look

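In each of the following genes, low over high cells were called one way and both induced comparisons the opposite way, and the difference of the effects passed the limma test with Benjamini-Hochberg adjustment. Genes higher in low cells and lower with both agents were Zscan4f (difference 7.89), Zscan4c (7.77), Gm4340 (7.89), Lefty1 (5.13), Lefty2 (5.14), Sox3 (3.14), Bnip3 (2.64), Ldha (2.60), Pfkl (2.47), Pdk1 (2.24), Ddx3y (2.08), Eif2s3y (1.96), Prdm14 (1.32), Nanog (1.23), Klf4 (1.2) and Sox2 (0.88). Genes lower in low cells and higher with both agents were Tekt4 (−5.42), Tat (−4.02), Osgin1 (−3.84), Sstr5 (−3.83), Krt8 (−3.31), Dppa3 (−2.48), Aldh1l2 (−2.21), Slc1a4 (−1.98), Plin2 (−1.96), Vegfa (−1.84) and Cpt1a (−0.52). Pdk1 was higher in low cells here (log2 fold change 0.25), whereas the study, normalizing to ERCC spike-in RNA, lists it among genes lowered in them. Induced folds of Dppa3, Slc1a4, Vegfa and Cpt1a change sign on the deposited scale. The MYC inhibitor folds of Klf4 and Sox2 change sign under loess and when scaled on genes of at least 1 FPKM, and the etomoxir fold of Ddx3y changes sign under the second of these.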

How the results depend on the processing

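The scale decided the balance of the calls. On the deposited FPKM, the counts of higher and lower genes were 14130 and 2012 for spontaneous minus mean induced, 13263 and 2337 against etomoxir, 12971 and 1173 against the MYC inhibitor, 11447 and 795 apart from both, 2172 and 799 for low over high, 3549 and 14160 for etomoxir over water, and 1954 and 13799 for the MYC inhibitor over DMSO. Scaled on genes of at least 1 FPKM, the counts that moved were 4866 higher and 9394 lower for the main difference, 4999 higher against etomoxir, 4072 higher and 6763 lower against the MYC inhibitor, 3108 higher and 5401 lower apart from both, 5630 lower for etomoxir over water, and 10771 higher and 4538 lower for the MYC inhibitor over DMSO. With only genes of at least 1 FPKM in 2 libraries, fewer genes were tested, and 5193 were higher in the main difference and 3532 higher than both. The cause of the shift between scales was not tested. All counts over all genes stayed within 1.5 times under the scaling over all 12 libraries, both pseudocounts, no filter, no trend, array weights, the replicate block and cyclic loess.

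Leaving out each library in turn gave 6683 to 8165 higher and 4720 to 6287 lower genes in the main difference. For low over high it gave 3026 to 4586 higher and 2290 to 3970 lower, with 2290 lower without low replicate 2 and 2404 without high replicate 2.

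Named genes whose difference changed sign on the deposited scale were Cpt1a (0.30), Msmo1 (0.01), Dnmt3l (0.07), Foxd3 (0.45), Pdk4 (0.26), Mdm2 (0.54) and Cenpf (0.53). Under loess they were Ccnb1 (−0.15), Mat2a (−0.26), Suz12 (−0.07) and Acat2 (−0.09), with scaling on genes of at least 1 FPKM Ccnb1 (−0.04) and Mat2a (−0.13), and with the filter at 1 FPKM Mat2a (−0.04).

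Replicate numbers are shared between the groups of a table, but they were not taken as pairing because the study's methods do not use them so. Deviations of same-numbered libraries correlated at 0, −0.08 and 0.02, which cannot show whether the cultures were paired. With the number as a replicate block, 7021 genes were higher and 5419 lower in the main difference.

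With 2 libraries a group, the spread is pooled over 6 groups, and a small change in single genes can be missed. Genes under 0.1 FPKM have compressed folds. A sorted fraction and a treated culture cannot be told apart from the route to quiescence in this design.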
